A study of Sus scrofa with 4 samples.

Results

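Translation initiation and elongation factors are the proteins that bring ribosomes to messenger RNA and move them along it. The genes described here are those whose name in the deposited table begins with EIF or EEF followed by a digit and whose mean over the libraries was at least 1 FPKM (fragments per kilobase of gene, scaled to the fragments of the library). The row with the highest mean was taken for each symbol. This gave 50 of 18208 genes. In all, 52 rows with 51 symbols carried such a name. An entry for EEF1A2 fell under the filter, and a second EIF2AK2 row with a mean of 0.930 FPKM gave way to the EIF2AK2 row with the higher mean.

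RNA came from the longissimus dorsi, the long muscle of the back, of 4 pig breeds, with 1 library per breed. Diannan Small Ear (DSP) and Tibetan (TP) pigs stood for the indigenous Chinese type, and Landrace (LL) and Yorkshire (YY) pigs for the introduced type. The breeds are therefore the replicates of a type (n = 2), and the spread within a type is that between breeds. The number of animals behind a library, their sex, age and feeding are not in the labels. The study asked which genes of the muscle differ between the types.

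In initiation, EIF2 carries the initiator tRNA to the small ribosomal subunit, and EIF2B recharges EIF2 with GTP. EIF3 is a many-subunit scaffold on the small subunit. EIF4E binds the cap of the mRNA, EIF4G bridges the cap to the ribosome, and the helicase EIF4A unwinds the leader. EIF1 and EIF1A keep the scanning ribosome open until it meets a start codon. In elongation, EEF1A delivers tRNAs, EEF1B2 and EEF1G belong to the complex that recharges EEF1A, and EEF2 moves the ribosome on by a codon. In skeletal muscle, insulin and amino acids act on initiation through the EIF4E-binding proteins, and contraction acts on elongation through the EEF2 kinase.

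The libraries had the defining genes of skeletal muscle, with ACTA1 between 16778 and 50812 FPKM, CKM between 3271 and 18668 FPKM and DES between 1829 and 6462 FPKM. Of the 9 muscle markers listed, 6 were found by name. Markers of other cells were lower. The summed fibroblast markers, 4 of 4 found, were 600 FPKM (DSP), 718 (TP), 469 (LL) and 113 (YY). Endothelial markers, 3 of 4 found, summed to between 28.5 and 82.8 FPKM, smooth muscle markers, 3 of 3 found, to between 41.6 and 168 FPKM, and macrophage markers, 2 of 4 found, to between 3.01 and 18.8 FPKM. Red blood cell genes, 2 of 2 found, summed to between 80.6 and 526 FPKM, Schwann cell markers, 2 of 2 found, to between 11.9 and 34.0 FPKM, and leukocyte markers, 2 of 2 found, to between 0.924 and 2.95 FPKM. For adipocytes, 2 of 3 markers were found, with PLIN1 between 1.01 and 11.5 FPKM and LEP listed at 0 in DSP, LL and YY. In bulk tissue, fewer cells of a type and less RNA per cell cannot be told apart. All FPKM of a library added up to between 880279 (TP) and 1450760 (DSP), and sequencing depth is unknown.

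Positions below are the loci of whole gene entries as deposited, for which no genome build is stated. Translation factors spanned a wide range of levels, and EIF1, EEF2 and EIF4A2 were among the 4 most abundant members in every library. EIF1, the start-site factor at 21278610 to 21281191 on chromosome 12, had 648 FPKM (DSP), 1112 (TP), 491 (LL) and 1885 (YY). EEF2, the translocase, had 1136 FPKM (DSP), 750 (TP), 894 (LL) and 1209 (YY). EIF4A2, a helicase of the cap-binding complex, had 1063 FPKM (DSP), 623 (TP), 777 (LL) and 1325 (YY). With EIF4G2 they had the highest means of the members. The lowest means were those of the EIF2 kinases EIF2AK2 and EIF2AK3, of EIF4EBP3 and of an entry for EIF5. The 50 members summed to 7231 FPKM (DSP), 6105 (TP), 5555 (LL) and 11281 (YY), which was 0.498%, 0.694%, 0.520% and 0.920% of all FPKM in that order of breeds.

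YY held the highest value of 32 of the 50 members, against 32.8% of the 11652 genes that passed the same FPKM filter. DSP was highest for 11 members (30% of all genes), LL for 6 (21.1%) and TP for 1, EIF2AK2 (16.2%). TP held the lowest value of 31 of the 50, against 35% of all genes. LL was lowest for 15 members (26.6%), DSP for 3 (12.3%) and YY for 1, EIF2AK4 (26.1%). TP was under YY for 47 of 50 members, where 61.9% of all genes were under. The exceptions were EIF2AK2, EIF2AK4 and EIF4EBP2, a kinase pair that acts on EIF2 and a repressor of EIF4E. Marker genes of other cells differed the other way between TP and YY, with median TP minus YY differences of 1.35 for endothelial, 2.30 for fibroblast and 2.76 for red blood cell markers, against −0.77 for skeletal muscle markers, in log2(FPKM + 1). Their part in the members' differences was not tested. At least 2-fold lower in TP than in YY were 8 members (8.97% of all genes), and 0 were 2-fold higher (7.78%). Between DSP and LL, 0 members differed at least 2-fold, where 4.8% of all genes were that much higher in DSP and 2.49% lower. These counts depended on scaling. When libraries were scaled to equal sums, with the 50 most abundant genes set aside (the common sum below), YY was highest for 22 members, TP was lowest for 17, and TP was under YY for 34. When they were scaled to an equal median ratio of genes (the common median ratio below), TP was lowest for 21.

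**Figure D1:**
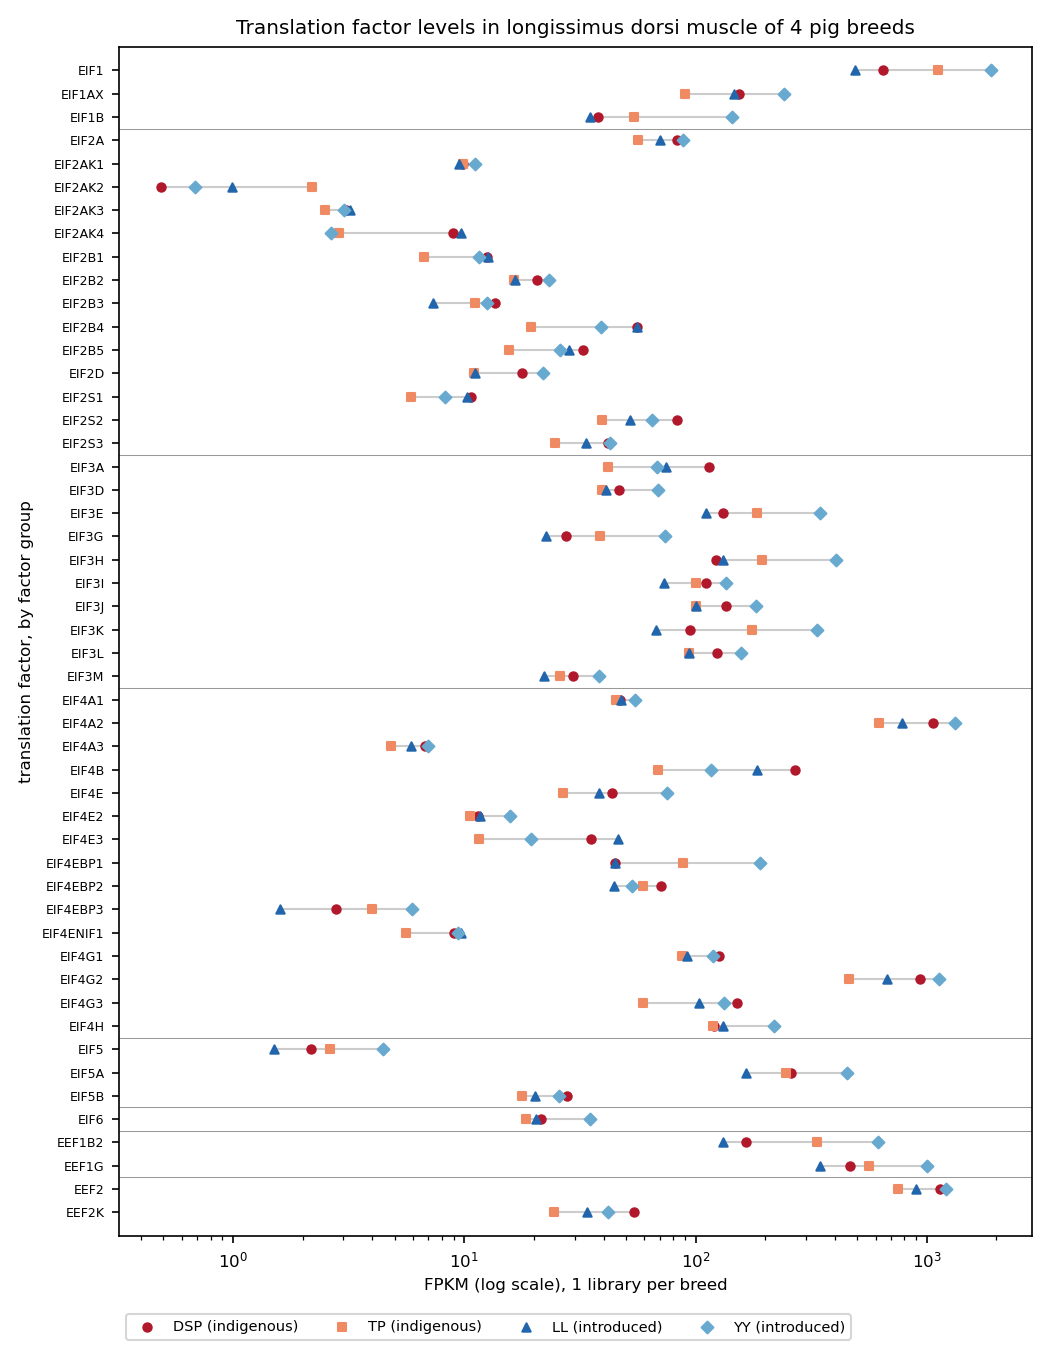
Level of each of the 50 translation factors in FPKM on a log axis, by factor group, with 1 symbol per library (DSP, TP, LL, YY) and a grey line from the lowest to the highest library. EIF1 and EEF1B2 reach their highest values in YY, at 1885 and 612 FPKM, while EIF4B is highest in DSP at 270 FPKM and lowest in TP at 69.1 FPKM.

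The members split into sets that differed between the breeds of each type. Differences are given in log2(FPKM + 1) throughout, and breed pairs, with 1 library per breed, have no test. In DSP minus TP, 10 of 50 members were at least 2-fold higher in DSP (15.6% of all genes) and 2 at least 2-fold lower (7.59% of all genes). In LL minus YY, 2 members were at least 2-fold higher in LL (13.1% of all genes) and 12 at least 2-fold lower (16.4% of all genes). DSP was above TP for 38 members (60.8% of all genes) and below for 12 (38.7%), and LL was below YY for 39 (49%). The median difference of the members was 0.36 in DSP minus TP, where all genes had 0.21, and −0.58 in LL minus YY, where all genes had 0.01. Under the common median ratio, 6 members were at least 2-fold higher in DSP and 5 lower. Under the common sum, 2 were higher and 7 lower, 28 of the 50 were below 0, and the members' median in DSP minus TP turned to −0.14, with all genes at −0.21. In LL minus YY, the common sum left 28 members below 0 and a median of −0.22, with all genes at 0.33.

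The pairs DSP and TP, and LL and YY, share no library, so their differences can be set side by side. The 12 members that were higher in TP than in DSP were EEF1B2, EEF1G, EIF1, EIF1B, EIF3E, EIF3G, EIF3H, EIF3K, EIF4EBP1, EIF4EBP3, EIF5 and EIF2AK2. Of these, 11 were also at least 2-fold higher in YY than in LL, with EIF2AK2, an antiviral kinase, as the exception. Of all genes, 16.4% were that much higher in YY, but the share that much higher among genes higher in TP than in DSP was not counted. At any size, 2935 of the 4510 genes higher in TP than in DSP were also higher in YY than in LL. These 11 were the members below 0 in both pairs, 22% of the 50 against 25.2% of all genes, so their number is near the background. Both other scalings raise TP relative to DSP, so the 12 had to stay higher in TP under them. The only other member at least 2-fold higher in YY than in LL was EIF5A, a factor that keeps ribosomes from stalling, at 258 FPKM (DSP), 246 (TP), 166 (LL) and 451 (YY). The members at least 2-fold higher in DSP than in TP were EIF4B, EIF4E3, EIF2B4, EIF3A, EIF2AK4, EIF4G3, EEF2K, EIF2S2, EIF4G2 and EIF2B5. Among these 10, EIF4E3 and EIF2AK4 were also at least 2-fold higher in LL than in YY (13.1% of all genes). Another 4 were higher in YY (49% of all genes). Both other scalings shift this pair by less than 2-fold, so the 10 had to stay higher in DSP than in TP. Members at least 2-fold higher in DSP numbered 6 under the common median ratio and 2 under the common sum. Over the 50 members the differences DSP minus TP and LL minus YY had Pearson r = 0.764 and Spearman rho = 0.672. Over all genes they had r = 0.459 and rho = 0.422. The relation was not particular to the members, as 64 cytosolic ribosomal protein genes had r = 0.781 and rho = 0.773. This is a description across genes, which share 4 libraries and are not independent replicates.

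Other features of the libraries differed between the same breeds. Cytosolic ribosomal protein genes, 64 symbols, had medians of −0.92 in DSP minus TP and −2.31 in LL minus YY, and 62 of them were higher in TP than in DSP. Loci under 300 bp outside the mitochondrial genome took 20.6% of the FPKM in DSP and 1.39% in TP, and 17.7% in LL and 5.55% in YY. NEB, a very long muscle transcript, had 1912 FPKM (DSP), 786 (TP), 1116 (LL) and 1495 (YY), so it was higher in DSP than in TP but lower in LL than in YY. Their part in the differences between translation factors was not tested.

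**Figure D2:**
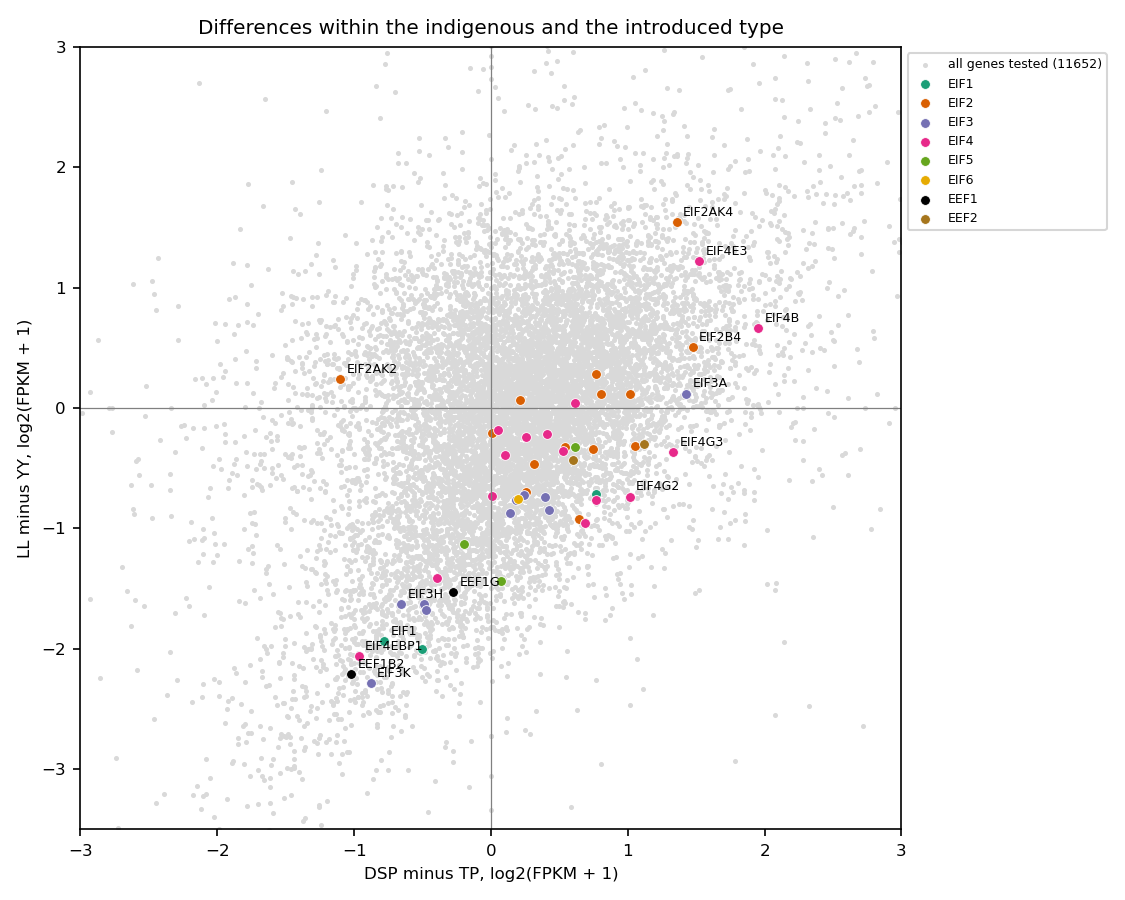
Difference DSP minus TP (x axis) against LL minus YY (y axis), both in log2(FPKM + 1), for the 50 translation factors coloured by factor group and for all 11652 genes in grey, of which 342 lie outside the plotted range. EEF1B2, EIF1, EIF3K and EIF4EBP1 lie under 0 on both axes, and EIF4E3 and EIF2AK4 lie above 1 on both.

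Among the start-site factors, EIF1 and its close paralogue EIF1B went together, while EIF1AX did not. EIF1B had 37.7 FPKM (DSP), 54.0 (TP), 35.1 (LL) and 144 (YY). EIF1AX, the X-linked gene for EIF1A at 17698996 to 17716716, had 155 FPKM (DSP), 90.4 (TP), 147 (LL) and 242 (YY). DSP and LL were close for all 3 genes, with differences of at most 0.40 between them. EIF1 exceeded EIF1AX 4.19-fold (DSP), 12.3-fold (TP), 3.35-fold (LL) and 7.79-fold (YY). Such ratios within a library do not depend on how libraries are scaled, and they show unequal levels rather than which gene differed.

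The EIF2 group had 14 members, with a median of 0.69 in DSP minus TP, which was 0.44 under the common median ratio and 0.21 under the common sum. In LL minus YY the median was −0.07, and 0.25 under the common sum. The subunits of EIF2 differed in level: EIF2S2, the beta subunit, had 83.0 FPKM (DSP), 39.5 (TP), 51.9 (LL) and 64.7 (YY). EIF2S1, the alpha subunit that stress kinases phosphorylate, had 10.7 FPKM (DSP), 5.89 (TP), 10.2 (LL) and 8.24 (YY). EIF2S3, the GTP-binding gamma subunit, had 42.0 FPKM (DSP), 24.7 (TP), 33.4 (LL) and 42.5 (YY). TP was lowest for these 3 rows, except that YY was lowest for EIF2S1 under the common sum. The ratio of the named beta row to gamma kept within a narrow range, at 1.98 (DSP), 1.60 (TP), 1.55 (LL) and 1.52 (YY). Another locus, whose gene ID belongs to EIF2S2, had 81.8 FPKM (DSP), 92.9 (TP), 60.99 (LL) and 173 (YY). Its mean was higher than that of the named row and it was lowest in LL. Both statements on the beta subunit therefore rest on the named row.

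All 5 subunits of EIF2B, the exchange factor for EIF2, were measured. EIF2B5, its catalytic epsilon subunit, had 32.5 FPKM (DSP), 15.6 (TP), 28.3 (LL) and 26.05 (YY). EIF2B4, the delta subunit, had 55.7 FPKM (DSP), 19.4 (TP), 56.0 (LL) and 39.1 (YY), but its entry spanned only 1362 bp, at 118690982 to 118692343 on chromosome 3. EIF2B1, EIF2B4 and EIF2B5 were lowest in TP under each scaling, and EIF2B2 only as deposited, whereas EIF2B3, the gamma subunit, was lowest in LL, at 13.5 FPKM (DSP), 11.2 (TP), 7.34 (LL) and 12.5 (YY).

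The kinases that phosphorylate EIF2 and so restrain initiation under stress were low and did not follow one pattern. EIF2AK1, the haem-regulated kinase, had 9.90 FPKM (DSP), 9.86 (TP), 9.52 (LL) and 11.2 (YY), the narrowest spread of any member, with the highest library 1.17-fold above the lowest. EIF2AK3, the kinase of endoplasmic reticulum stress, lay between 2.51 and 3.22 FPKM. EIF2AK4, the amino acid sensor GCN2, had 8.90 FPKM (DSP), 2.86 (TP), 9.67 (LL) and 2.66 (YY), from an entry of 2553 bp. DSP and LL were thus alike and well above TP and YY, which were alike as well. EIF2AK2, the kinase activated by double-stranded RNA, had 0.486 FPKM (DSP), 2.19 (TP), 0.991 (LL) and 0.688 (YY). Another row of that symbol at the same locus had 1.35 FPKM (DSP), 0.753 (TP), 1.31 (LL) and 0.307 (YY), so how fragments were divided between the rows affects this value. EIF2A and EIF2D, which can bring tRNA to the ribosome without EIF2, had their highest values in YY, at 87.9 and 21.9 FPKM, and their lowest in TP, at 56.6 and 11.02 FPKM. Under the common sum, EIF2A was highest in LL, and EIF2D was lowest in LL under both other scalings.

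The 10 measured subunits of EIF3 did not move as a unit. EIF3A, the large scaffold subunit on chromosome 14 at 140498359 to 140537959, had 114 FPKM (DSP), 41.8 (TP), 74.3 (LL) and 68.4 (YY). EIF3K, a small peripheral subunit, had 94.9 FPKM (DSP), 175 (TP), 67.7 (LL) and 334 (YY). EIF3H, a subunit of the core octamer, had 122 FPKM (DSP), 193 (TP), 131 (LL) and 407 (YY). Under each scaling, EIF3A was highest in DSP and lowest in TP, while EIF3K and EIF3H were highest in YY. EIF3K and EIF3H were also higher in TP than in DSP, a difference that both other scalings could only widen. EIF3E had 131 FPKM (DSP), 184 (TP), 111 (LL) and 345 (YY), and EIF3G, which binds RNA, had 27.4 (DSP), 38.5 (TP), 22.5 (LL) and 74.0 (YY).

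The remaining subunits EIF3D, EIF3I, EIF3J, EIF3L and EIF3M were highest in YY, except that EIF3I and EIF3M were highest in TP under the common sum, and differed by at most 0.43 in DSP minus TP. Relative to EIF3A, each of the 9 other subunits had a lower ratio in DSP than in TP and in LL than in YY. EIF3A had the most positive difference of the measured subunits in both pairs, 1.43 in DSP minus TP and 0.12 in LL minus YY. In LL minus YY the other 9 subunits were below 0. The shared direction therefore follows from taking EIF3A as the denominator and adds nothing about the other subunits. In all 9 the ratio in DSP was at most 0.493 of that in TP, and the smallest was 0.198 of it. The ratio in LL was between 0.186 and 0.550 of that in YY, with 5 of 9 at least 2-fold lower. EIF3K over EIF3A was 0.831 (DSP), 4.19 (TP), 0.911 (LL) and 4.89 (YY). EIF3L over EIF3A differed less, at 1.09 (DSP), 2.25 (TP), 1.27 (LL) and 2.31 (YY). The median of the group was 0.16 in DSP minus TP, which turned to −0.09 under the common median ratio and −0.34 under the common sum, and −0.86 in LL minus YY.

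**Figure D3:**
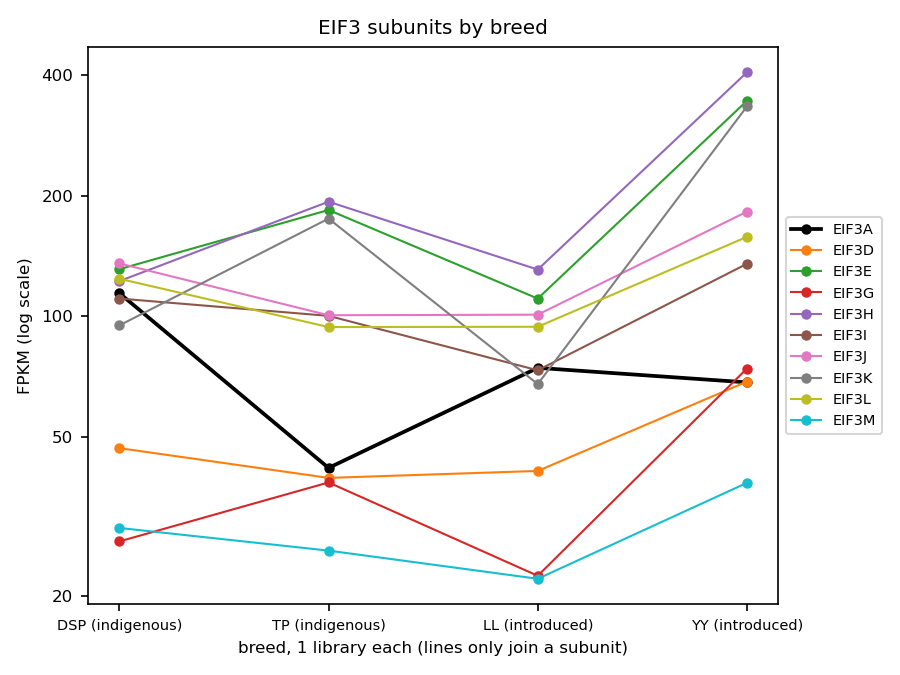
FPKM of the 10 measured EIF3 subunits on a log axis in the 4 breed libraries, with lines that only join the points of a subunit and EIF3A in black. EIF3A is highest in DSP at 114 FPKM, whereas EIF3E, EIF3H and EIF3K lie at 345, 407 and 334 FPKM in YY.

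Of the helicases, EIF4A2 exceeded EIF4A1 in every library, 22.7-fold (DSP), 13.8-fold (TP), 16.3-fold (LL) and 24.3-fold (YY). EIF4A1 itself varied little, at 46.9 FPKM (DSP), 45.2 (TP), 47.7 (LL) and 54.5 (YY). EIF4A3, a helicase of the exon junction complex, lay between 4.84 and 6.98 FPKM. These genes are close paralogues, and how fragments shared between them were assigned is not given. The EIF4A2 and EIF4A1 loci also hold small nucleolar RNA entries, one of which reached 4479 FPKM in DSP at the EIF4A2 locus.

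The helicase partners EIF4B and EIF4H differed in pattern. EIF4B had 270 FPKM (DSP), 69.1 (TP), 184 (LL) and 116 (YY), the largest difference of any member in DSP minus TP, at 1.95. Its entry spanned 1153 bp, at 18745075 to 18746227 on chromosome 5, a short span for this gene. EIF4H had 120 FPKM (DSP), 119 (TP), 131 (LL) and 219 (YY). The EIF4H to EIF4B ratio was 0.443 (DSP), 1.73 (TP), 0.711 (LL) and 1.88 (YY).

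EIF4G2, a scaffold that lacks the EIF4E-binding part and serves cap-independent initiation, was the most abundant EIF4G gene. It had 930 FPKM (DSP), 460 (TP), 674 (LL) and 1123 (YY). EIF4G3 had 151 FPKM (DSP), 59.4 (TP), 103 (LL) and 133 (YY), and EIF4G1, the canonical scaffold, had 126 (DSP), 87.3 (TP), 92.1 (LL) and 118 (YY). All 3 scaffolds were lowest in TP, though EIF4G1 was lowest in LL under the common median ratio and in YY under the common sum. Their differences in DSP minus TP were 1.02 for EIF4G2, 1.33 for EIF4G3 and 0.53 for EIF4G1, and EIF4G1 differed by −0.36 in LL minus YY.

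Neither the cap-binding genes nor their repressors moved as a set. EIF4E had 43.6 FPKM (DSP), 26.7 (TP), 38.4 (LL) and 75.6 (YY). EIF4E3, an atypical cap-binding relative, had 35.2 FPKM (DSP), 11.6 (TP), 46.4 (LL) and 19.4 (YY), so DSP and LL lay above TP and YY. EIF4E2, a relative that represses translation, lay between 10.6 and 15.8 FPKM, and EIF4ENIF1, which shuttles EIF4E to the nucleus, between 5.58 and 9.69 FPKM. EIF4EBP1, the repressor released from EIF4E when mTORC1 phosphorylates it, had 44.6 FPKM (DSP), 88.1 (TP), 44.8 (LL) and 191 (YY). DSP and LL were nearly equal, and TP and YY lay above both, with differences of −0.97 in DSP minus TP and −2.06 in LL minus YY. EIF4EBP1 over EIF4E was 1.02 (DSP), 3.30 (TP), 1.17 (LL) and 2.52 (YY).

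EIF4EBP2, a second repressor, had 70.9 FPKM (DSP), 59.3 (TP), 44.5 (LL) and 52.9 (YY). Both indigenous libraries were above both introduced ones, under each scaling. As deposited it was the only such member, while under the common sum EIF2B3, EIF4G1 and EIF5B were so too. EIF4EBP1 over EIF4EBP2 was 0.630 (DSP), 1.49 (TP), 1.01 (LL) and 3.61 (YY), so the more abundant repressor was not the same in every breed. EIF4EBP3 was low, at 2.79 FPKM (DSP), 4.0 (TP), 1.60 (LL) and 5.93 (YY).

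Of the factors of subunit joining, EIF5B, the GTPase that joins the ribosomal subunits, had 27.9 FPKM (DSP), 17.8 (TP), 20.3 (LL) and 25.6 (YY). EIF6, which keeps free large subunits apart, had 21.5 FPKM (DSP), 18.6 (TP), 20.4 (LL) and 35.1 (YY). EIF5, which prompts GTP hydrolysis by EIF2, was read from an entry of 1309 bp on an unplaced scaffold and lay between 1.5 and 4.47 FPKM.

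In elongation, the exchange subunits went with EIF1 and EIF3K and EEF2 did not. EEF1B2, on chromosome 15 at 121000536 to 121004164, had 165 FPKM (DSP), 336 (TP), 131 (LL) and 612 (YY). EEF1G, on chromosome 2 at 8507885 to 8518300, had 465 FPKM (DSP), 563 (TP), 345 (LL) and 999 (YY). Both were highest in YY under each scaling. Both were also higher in TP than in DSP, a difference that both other scalings could only widen. Their differences were −1.02 and −0.28 in DSP minus TP and −2.21 and −1.53 in LL minus YY. EEF1B2 over EEF2 was 0.145 (DSP), 0.448 (TP), 0.147 (LL) and 0.506 (YY). EEF2K, the kinase that inactivates EEF2, had 54.1 FPKM (DSP), 24.3 (TP), 33.8 (LL) and 41.8 (YY). Its ratio to EEF2 was low throughout, at 0.0476 (DSP), 0.0324 (TP), 0.0378 (LL) and 0.0345 (YY).

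**Figure D4:**
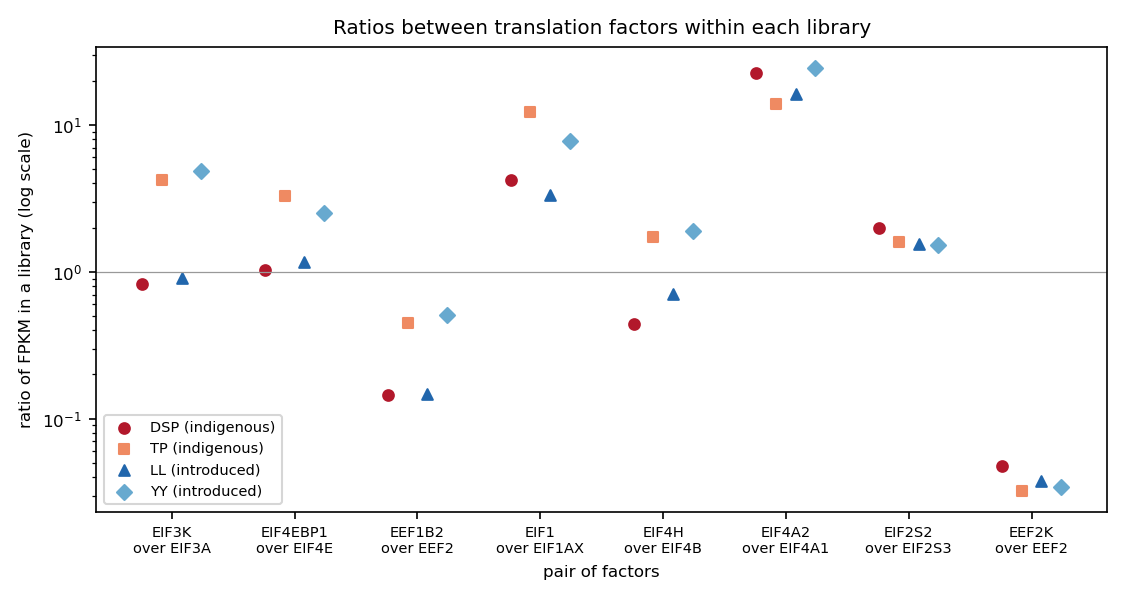
FPKM ratio of pairs of translation factors within each of the 4 libraries, on a log axis, with a line at 1. For EIF3K over EIF3A, EIF4EBP1 over EIF4E, EEF1B2 over EEF2, EIF1 over EIF1AX and EIF4H over EIF4B, TP and YY lie above DSP and LL. The named EIF2S2 row over EIF2S3 keeps between 1.52 and 1.98.

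Across the types, no translation factor passed the test. With limma on log2(FPKM + 1) over all genes and Benjamini-Hochberg adjustment, 0 of 50 members and 0 of 11652 genes (0%) passed in either direction, with a smallest adjusted p of 0.263. At an unadjusted p under 0.05 there were 0 members and 130 genes (1.12%), 64 higher in the indigenous type (0.549%) and 66 lower (0.566%). The smallest unadjusted p of a member was 0.369, for EIF4E. EIF4E averaged 35.1 ± 11.9 FPKM in the indigenous type and 57.0 ± 26.3 in the introduced type (SD, n = 2 each), a difference of −0.64 (SE 0.67, limma adjusted p = 0.9999). EIF1AX averaged 123 ± 45.4 FPKM in the indigenous and 194 ± 67.4 in the introduced type (SD, n = 2 each), a difference of −0.67 (SE 0.76, limma adjusted p = 0.9999). EIF4EBP2 averaged 65.1 ± 8.21 FPKM in the indigenous and 48.7 ± 5.96 in the introduced type (SD, n = 2 each), a difference of 0.41 (SE 0.62, limma adjusted p = 0.9999). For these genes the difference was no larger than its standard error.

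The members nevertheless lay mostly to one side. The difference was under 0 for 44 of 50, against 52.4% of all genes, and the members' median was −0.19, against −0.02 for all genes. Under the common sum, 33 of the 50 were under 0 and the median was −0.06, with all genes at 0.10. Group medians were −0.14 for EIF2 (14 members), −0.22 for EIF3 (10), −0.30 for EIF4 (15), −0.23 for EEF1 (2) and −0.11 for EEF2 (2). The EEF2 median turned to 0.03 under the common sum. Groups go by name, so EIF2 includes its kinases, EIF4 the EIF4E-binding proteins and EEF2 the kinase EEF2K. This side rested on single libraries: without TP, 24 of the 50 were under 0 and the median was 0.02, and without YY, 21 were under 0 and the median was 0.08. Both indigenous libraries were below both introduced ones for EIF4A1, EIF4E2, EIF4ENIF1 and EIF4H, 4 members, where 9.17% of all genes were, but which members these were depended on scaling. Under the common median ratio they were EIF1AX, EIF2AK3, EIF4E2 and EIF4ENIF1, and under the common sum EIF1AX, EIF2A and EIF4E. The reverse held for EIF4EBP2 under each scaling, 1 member as deposited, where 9.47% of all genes did, and under the common sum also for EIF2B3, EIF4G1 and EIF5B. EIF4H averaged 119 ± 0.300 FPKM in the indigenous and 175 ± 61.9 in the introduced type (SD, n = 2 each), a difference of −0.50 (SE 0.73, limma adjusted p = 0.9999).

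**Figure D5:**
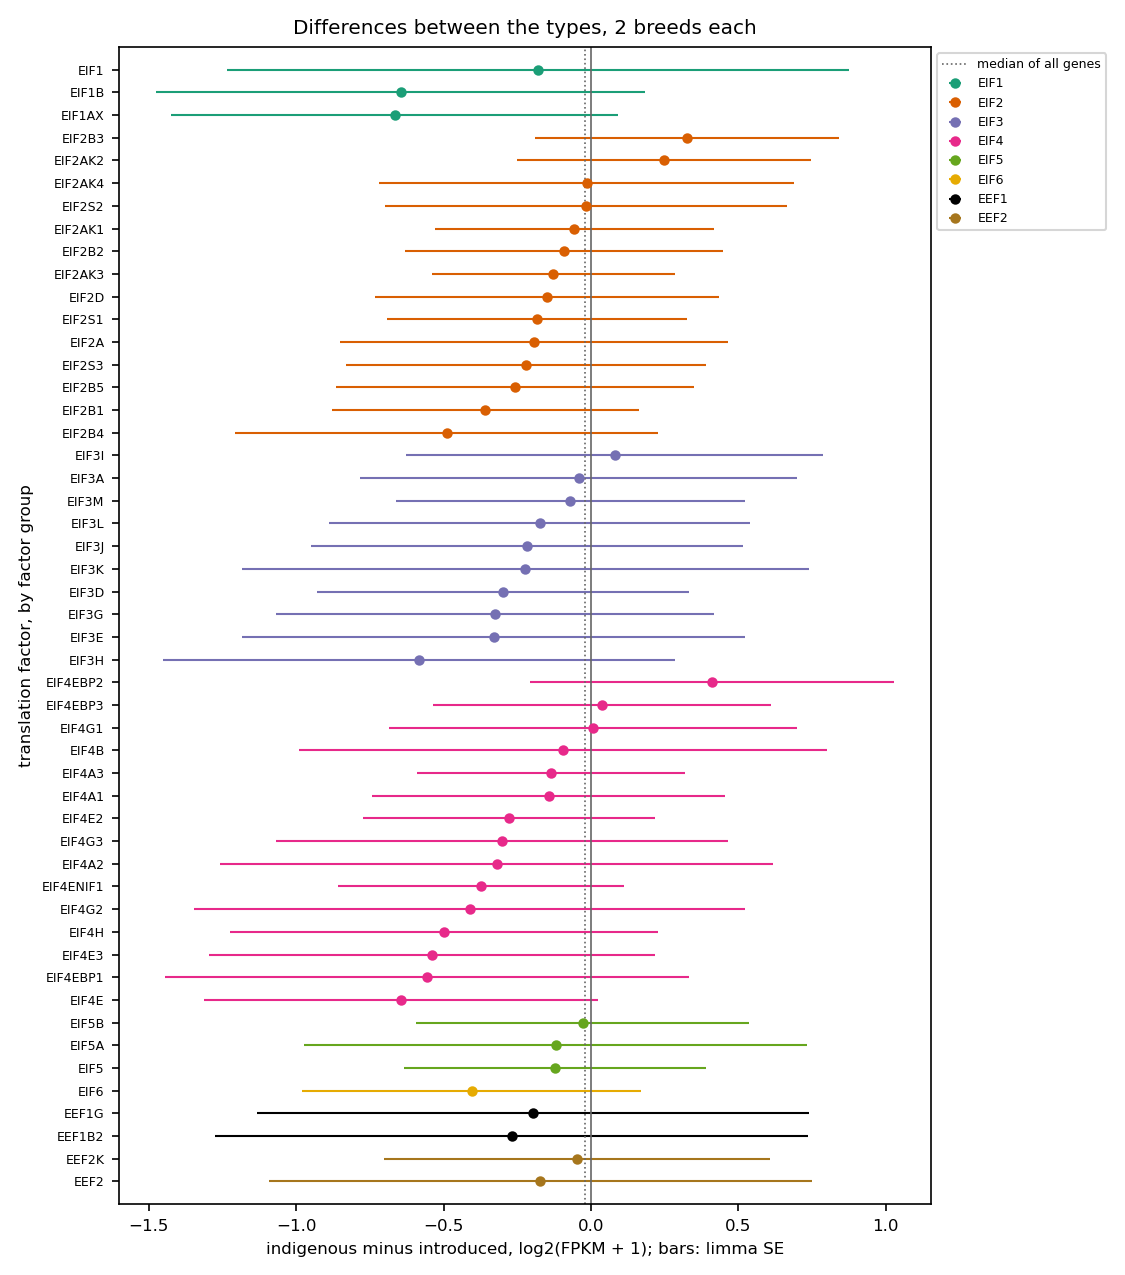
Difference between the types, indigenous minus introduced, in log2(FPKM + 1), for each of the 50 translation factors by factor group, with bars of 1 limma standard error to each side (n = 2 breeds per type) and a dotted line at the median of all genes. The differences run from −0.67 for EIF1AX to 0.41 for EIF4EBP2, and 44 of 50 lie under 0.

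The authors' deposited table lists 12 of the 50 members with a false discovery rate under 0.05, against 3.32% of its 18208 genes. These sets are unlike, as the 18208 include genes under the filter of 1 FPKM that the members passed. The share over the 11652 filtered genes was not counted. All 12 members were lower in the indigenous type. They were EEF1B2, EEF1G, EIF1, EIF1AX, EIF1B, EIF3E, EIF3H, EIF3K, EIF4A2, EIF4EBP1, EIF4G2 and EIF4H. In the authors' deposited table, the ratio of the indigenous to the introduced value was 0.741 for EIF1, with a false discovery rate of 8.67e-11, and 0.563 for EIF4EBP1, with 0.00452. The test behind these values is not stated, and that table compares 1 pooled value per type. For 11 of the 12, the breeds of the types overlapped, and each of the 12 had a mean of at least 67.6 FPKM.

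Genes that work beside the translation factors gave 0 calls between the types with limma in every list. A terminal oligopyrimidine leader ties the translation of an mRNA to mTORC1. Of 9 genes listed with a known leader of this kind, 7 were found by name. The members EEF1B2, EEF1G, EIF3E and EIF3H and the elongation gene EEF1D, named from its gene ID, were higher in TP than in DSP. These were also at least 2-fold higher in YY than in LL. EEF2 and EIF4B were higher in DSP than in TP. The row named EF1ALPHA, given at the end, is not among the 7. It differed by −0.15 in DSP minus TP and 0.50 in LL minus YY. The list's medians were −0.27 between the types, −0.49 in DSP minus TP and −1.63 in LL minus YY. Of 6 other genes listed with such a leader, 4 were found, with medians of −0.30, 0.02 and −0.37 in that order. GNB2L1, the ribosome-bound scaffold RACK1, had 336 FPKM (DSP), 510 (TP), 245 (LL) and 975 (YY), and HNRNPA1 had 170 (DSP), 97.8 (TP), 130 (LL) and 128 (YY). NAP1L1, a histone chaperone, lay between 73.9 and 122 FPKM, and PABPC1, a poly(A)-binding protein, between 55.6 and 84.8 FPKM.

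Among 12 genes of mTORC1 signalling to initiation, the median was −0.03 between the types. Of these 12, 4 were at least 2-fold higher in DSP than in TP, against 15.6% of all genes. RHEB, the GTPase that switches mTORC1 on, had 88.9 FPKM (DSP), 117 (TP), 118 (LL) and 289 (YY). DEPTOR, an inhibitor of mTOR, had 194 FPKM (DSP), 65.1 (TP), 57.5 (LL) and 45.8 (YY), so DSP stood apart. MKNK2, a kinase of EIF4E, had 168 FPKM (DSP), 78.7 (TP), 142 (LL) and 181 (YY).

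The 8 measured genes of the integrated stress response, which runs when EIF2 is phosphorylated, had a median of 0.24 between the types and −0.76 in DSP minus TP. ATF4, its central transcription factor, had 1763 FPKM (DSP), 1342 (TP), 1533 (LL) and 4000 (YY). ATF3, which stress of many kinds induces, had 34.3 FPKM (DSP), 394 (TP), 25.3 (LL) and 52.7 (YY). ATF4 was therefore highest in YY and ATF3 in TP.

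For the other lists, the median given with each list is between the types. In DSP minus TP their medians, in the order below, were 0.46, 0.43, 0.04, 0.29 and 0.65, where all genes had 0.21. In LL minus YY they were −0.30, −0.36, −0.52, −0.42 and −0.26, where all genes had 0.01. The 9 poly(A) binding and initiation partners had a median of −0.03 between the types, with the poly(A)-binding PABPC4 between 135 and 253 FPKM, the helicase DDX3X between 97.5 and 197 FPKM, and PAIP2B, a repressor of poly(A)-binding protein, at 33.8 FPKM (DSP), 13.5 (TP), 34.1 (LL) and 7.79 (YY). The 5 termination and recycling genes had a median of −0.13, with HBS1L between 47.4 and 106 FPKM, the release factor ETF1 between 39.8 and 71.7 FPKM and PELO between 14.3 and 24.8 FPKM. The 6 hypusine and diphthamide enzymes, which modify EIF5A and EEF2, had a median of −0.10, with DPH3 between 29.7 and 70.4 FPKM, DHPS between 19.8 and 34.2 FPKM and DPH6 between 1.69 and 5.62 FPKM. The 8 mitochondrial translation factors had a median of 0.16, with TUFM, the mitochondrial counterpart of EEF1A, between 25.2 and 51.6 FPKM. In that list, TSFM lay between 12.4 and 19.5 FPKM, GFM1 between 10.5 and 20.9 FPKM and GFM2 between 2.27 and 5.95 FPKM. The 19 tRNA synthetase genes had a median of 0.01, and 17 of the 19 were higher in DSP than in TP, against 60.8% of all genes. KARS lay between 142 and 266 FPKM, DARS between 63.0 and 89.1 FPKM, NARS between 25.4 and 54.9 FPKM and VARS between 5.02 and 13.7 FPKM.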

How the data were processed

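Libraries were made from total RNA with a TruSeq kit, per the labels' protocols, and TopHat, a spliced aligner, is among the tools in the submitters' processing notes. For the genome build, the annotation and the quantification program, nothing is given in the sources used here. The values are FPKM, as deposited by the authors in 1 table. The pooled FPKM, the ratio or fold change and the p-value with a false discovery rate are the authors' deposited values. The pooled indigenous value equalled the mean of DSP and TP within 0.1% for all 50 members. No counts or depths were available, so counting error is unknown. Positions are the deposited loci, which can span several genes, and 12 members share theirs with another entry.

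The comparison of types used log2(FPKM + 1) and limma 3.58.1 under R 4.3.3, with an intensity-dependent prior, over the 11652 genes that reached a mean of 1 FPKM. Benjamini-Hochberg adjustment ran over all of them, at a threshold of 0.05. Breeds are single libraries, so p-values measure the spread between these samples, part of which may be technical. The steps were tested on simulated data. Breed pairs were compared as differences, with 2-fold as the mark. Python 3.11.15, numpy 2.4.6, pandas 2.3.3, scipy 1.17.1 and matplotlib 3.10.9 were used. Genes outside the members took the name in the file or, without one, that of their gene ID in a reference table. Members, lists, tests and alternatives were chosen with earlier results of these data known. In each factor group the most abundant members and those with the largest differences were named, and ratios were chosen after their values were seen. In each list of other genes, the 2 most abundant genes and the 2 with the largest differences between types were named. Alternatives were other pseudocounts, filters and scalings, summed rows, longer loci, other limma priors and leaving out each library.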

Additional observations from a re-analysis of the deposited data

How the results depend on the processing

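No paired analysis was possible because each library came from a different breed, and the labels match no indigenous breed to an introduced one. Over the whole table, 1 gene was called higher and 2 lower with a pseudocount of 0.1, and 1 lower at loci of at least 300 bp. Leaving out a library gave between 0 and 27 genes called lower (27 without YY), where the lone library of a type is assumed to vary like the others, and 0 members were called under any alternative. In DSP minus TP, the members at least 2-fold higher were 6 under the common median ratio and 2 under the common sum. Those at least 2-fold lower were 5 and 7 under these scalings, and 1 with a pseudocount of 5, with a filter of 5 FPKM or with summed rows. In LL minus YY, 1 member was at least 2-fold higher with a pseudocount of 5. The EIF2 median between the types ran from −0.51 to 0.16 when a library was left out. The EIF1B difference ran from −1.65 to 0.36, reversed without YY. Of the remaining values compared, the number of genes tested moved with the filter, to 18208 without one and 7273 at 5 FPKM, and the LL minus YY difference of EIF2AK4 was 0.94 with a pseudocount of 5. Members below 0 in DSP minus TP numbered 22 under the common median ratio and 28 under the common sum. Without TP or YY, the members' side between types was lost, as given above, and TP was lowest for 17 under the common sum. Group medians near 0 changed sign: in LL minus YY under the common sum to 0.25 (EIF2), 0.01 (EIF4) and 0.01 (EEF2), and between types to 0.27 (EIF3) and 0.70 (EEF1) without YY, and 0.07 (EIF4) and 0.32 (EEF2) without TP. The cause was not tested. Without sequencing depth, the precision of low members such as EIF2AK2 is unknown, and 2 breeds per type limit every test.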

Other observations

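Rows outside the name rule belong to the same machinery. A row named EF1ALPHA, an older name for the tRNA-delivering factor EEF1A, had 556 FPKM (DSP), 619 (TP), 708 (LL) and 502 (YY). It was thus lowest in YY, where the exchange subunits EEF1B2 and EEF1G were highest. A row with no name in the file, whose gene ID belongs to EEF1D, a further exchange subunit, had 49.5 FPKM (DSP), 191 (TP), 39.1 (LL) and 381 (YY). Its differences were −1.93 in DSP minus TP and −3.25 in LL minus YY.

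A second locus on chromosome 17, whose gene ID belongs to EIF2S2, had 81.8 FPKM (DSP), 92.9 (TP), 60.99 (LL) and 173 (YY). This order differs from that of the named EIF2S2 row, which was highest in DSP. EIF1AD, named from its gene ID, had 6.99 FPKM (DSP), 3.40 (TP), 8.69 (LL) and 7.73 (YY). The row named EEF1A2, an entry of 1317 bp on chromosome 9, was listed at 0 in DSP, TP and LL and had 0.140 FPKM in YY. Whether so short an entry covers the whole gene is unknown, so the level of EEF1A2 in the muscle cannot be read from it.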
